A study of Homo sapiens with 9 samples.

Results

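Small interfering RNAs (siRNAs) are short RNA duplexes that are taken up by Argonaute proteins, where the strand that is kept guides cleavage of a fully matching RNA. The seed, a short stretch near the 5′ end of that guide, can also lower messenger RNAs (mRNAs) that match it in their 3′ untranslated regions, so that different siRNAs against the same transcript may each touch mRNAs of their own. SNHG5 is a long non-coding RNA that hosts small nucleolar RNAs (snoRNAs) in its introns, and host transcripts of this family carry a tract that ties their levels to translation. The data described here set 2 siRNAs meant for SNHG5 directly against each other. They comprise the 3 libraries labelled siRNA A and the 3 labelled siRNA B, 6 of the 9 libraries of the series. Genes were kept where at least 3 of these 6 libraries reached 1 CPM (reads of a gene scaled to the total reads of its library), which left 13427 of 15354 genes (87.45%).

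RNA came from HCT116, an established human colorectal carcinoma line, reverse transfected with siRNA using RNAiMAX. The labels give a dose of 25 nM, while the methods of the study give 50 nM for its siRNAs. The remaining 3 libraries received a commercial non-targeting control siRNA at the same dose, and their values are set beside those of the siRNAs. All 9 were polyadenylated RNA read as single ends of 50 bases. The model is transient transfection of a single line, and which of the siRNA names used in the study is A or B was not given by the labels. The replicates are biological according to the methods of the study, and p-values measure the spread between these libraries.

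Library totals, recovered from the CPM steps, were 15566530 to 23277549 reads in the 6 libraries, so that a count of 0 in a library allowed a level of up to 0.129 to 0.193 CPM. Such limits cover counting error only. Pairwise correlation of log2 levels across genes was 0.9824 to 0.9942 within a group and 0.9587 to 0.9744 between A and B, and the first principal component (64.46% of the variance) placed all A libraries on one side and all B libraries on the other. Replicate 2 of either siRNA had the fewest reads of its group and the lowest score on the second component, so several results that rest on replicate 2 of siRNA A are also given without it. Colon epithelial markers summed to 2810 to 3440 CPM with A and 2390 to 2450 with B. Fibroblast markers summed to 9.44 to 12.4 CPM with A and 8.59 to 9.45 with B, and leukocyte markers to 1.52 to 1.8 and 1.29 to 1.94. No endothelial marker and neither PTPRC, CD3E, DCN nor COL1A2 had a row in the table.

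SNHG5 (ENSG00000203875.5, GRCh37 chr6:86360209-86388650, minus strand) was measured first, as the transcript both siRNAs were meant for. Levels below are TMM-scaled CPM, that is, CPM divided by a library factor that sets most genes level between libraries. SNHG5 was at 66.8, 54.8 and 63 with siRNA A, at 43.4, 47.4 and 42.6 with siRNA B, and at 29.5, 21 and 24.7 with the control. Every library labelled as a knockdown was thus above every control library, and the A libraries were above the B libraries. The log2 difference, A less B, was 0.46 (SE 0.114, adjusted p = 0.0132, limma with Benjamini-Hochberg adjustment over all 13427 genes, as for every adjusted p below). It was 0.305 (adjusted p = 0.0871) with library totals alone as scaling, 0.395 (adjusted p = 0.0552) without replicate 1 of A, and 0.445 (adjusted p = 0.0509) without replicate 1 of B. The annotated span overlaps the pseudogene PKMP3, and the reads are counted per gene, so the site each siRNA targets cannot be seen. Lower SNHG5 was therefore not measured with either siRNA in these libraries, and the siRNAs are called by their labels alone. The study itself reported knockdown with each of its SNHG5 siRNAs by quantitative PCR in this line, a measure unlike reads counted per gene.

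SNHG5 belongs to a class with a larger share higher with A (42.9%) than all genes (16.4%), though the list was not tested as a set. Of 21 host transcripts of snoRNAs tested, 9 were higher with A and 0 lower at an adjusted p under 0.05 by limma, edgeR and DESeq2 alike (9 and 0 also at an unadjusted p under 0.05). The median log2 difference was 0.285. With library totals alone as scaling 5 were higher and the median was 0.136. Without replicate 1 of B 5 were higher. DANCR was highest among them, at 189, 207 and 154 with A against 81.5, 74 and 80 with B, a log2 difference of 1.20 (SE 0.126, adjusted p = 0.000274). SNHG15 was at 55.2, 114 and 47.4 with A and 31.4, 36.7 and 33.6 with B (log2 difference 0.96, or 0.583 without replicate 2 of A), and its call was lost without replicate 1 of B (0.915, adjusted p = 0.0624). Against the control the list median was 0.883 with A and 0.406 with B; these and all later comparisons with control share the same 3 control libraries.

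Across all genes, 4589 of 13427 differed between the siRNAs (34.2%), 2201 higher with A (16.4%) and 2388 lower (17.8%). Of these, 517 were past 2-fold on the log2(CPM + 1) scale (3.85%). The values of the 3 A libraries did not overlap those of the 3 B libraries in 6485 genes (48.3%). Scaling mattered for the split. TMM factors averaged 0.9484 in A and 1.056 in B, and with library totals alone the median gene moved from -0.0084 to -0.146 and the calls from 2201 higher and 2388 lower to 1288 higher and 3419 lower. All list medians below can be read against the TMM median of all genes, and a list median falls by about the same shift under totals alone.

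**Figure D1:**
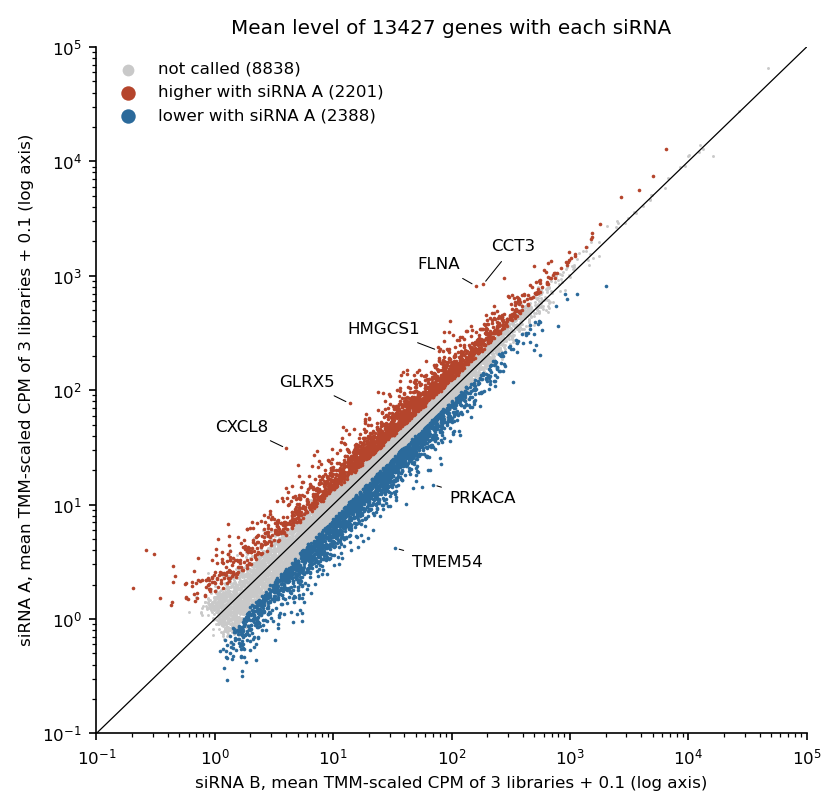
Mean TMM-scaled CPM of each of the 13427 genes over the 3 siRNA A libraries (vertical, log axis) and the 3 siRNA B libraries (horizontal, log axis), with 0.1 added for plotting and the line of equality drawn. Red points (2201) and blue points (2388) are genes called higher and lower with A; CXCL8, GLRX5, FLNA and CCT3 lie far above the line and TMEM54 and PRKACA far below it.

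The direction went with the level of a gene. Genes were ordered by mean level and divided into 5 equal classes. In the highest class, over 70.8 CPM, 28.9% were higher with A and 9.05% lower, and the median log2 difference was 0.168. In the lowest class, up to 4.16 CPM, 7.04% were higher and 17.1% lower, with a median of -0.118. Exonic GC content and length went with it more weakly, with Pearson r of -0.0914 and -0.122 across the 13070 genes that had both values. Genes are not independent replicates, and the part of level, GC content or length in any list below was not tested.

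**Figure D2:**
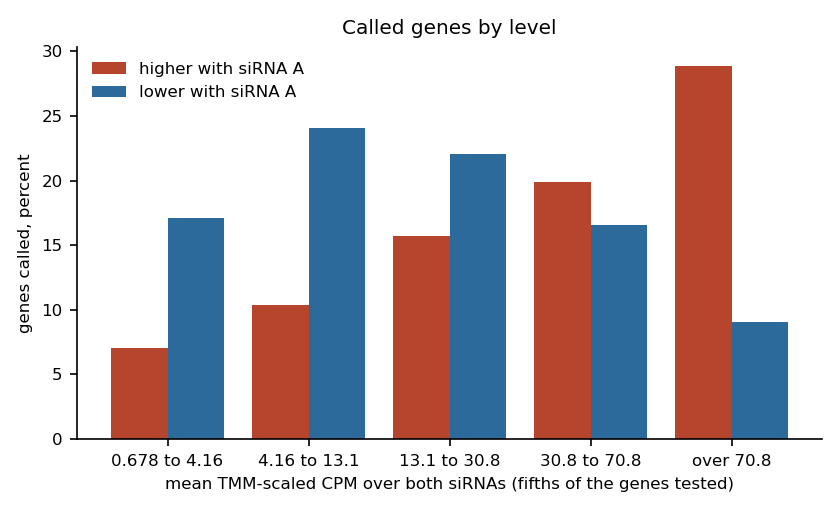
Percent of genes called higher (red) and lower (blue) with siRNA A in 5 equal classes of the 13427 genes ordered by mean TMM-scaled CPM over both siRNAs. The red bars climb from 7.04% to 28.9% with level, and the blue bars are lowest, at 9.05%, in the highest class.

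Of the 15 genes highest with A, 10 lay nearer to control with A than with B, and B was below control in all of these. The 15 largest in each direction were taken from called genes whose groups did not overlap and whose mean was at least 5 CPM. GLRX5, a mitochondrial glutaredoxin of iron-sulfur cluster assembly, was at 84.1, 75.4 and 69.9 with A and at 16, 10.5 and 14.6 with B, against 99.9, 87.7 and 87.8 with control. The B libraries thus held far less GLRX5 RNA than any other library. Its log2 difference was 2.42 (SE 0.157, adjusted p = 3.6e-05). FLNA, encoding the actin cross-linker filamin A, was at 724, 921 and 805 with A, 155, 190 and 134 with B, and 672, 1044 and 890 with control (log2 difference 2.35, SE 0.147). CCT3, a subunit of the TRiC chaperonin that folds actin and tubulin, was at 851, 868 and 801 with A, 199, 160 and 195 with B, and 695, 668 and 657 with control (2.19, SE 0.118). A and control lay close together for FLNA, and both were far above B for all 3 genes. The same order held for CNN2 (calponin 2), ACTN4 (alpha-actinin 4) and RSL24D1 (a ribosome biogenesis factor), with mean levels of 398, 950 and 95 with A, 96.4, 277 and 26.1 with B, and 301, 788 and 75 with control.

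For the other 5 of the 15, A was the group farther from control. CXCL8, MSMO1, BIRC3, KRTAP2-3 and ZNF804A are of this kind and are described with their pathways or below. MAPRE1, GMFB, CAPN12 and ENSG00000267020.1, also given below, are among the 10 that lay nearer to control with A. KRTAP2-3, a keratin-associated protein gene of a family of near-identical copies, averaged 27 with A, 6.84 with B and 8.12 with control, and reads shared with its copies make its level uncertain. MAPRE1, encoding the microtubule end-binding protein EB1, was at 295, 371 and 304 with A, 94.7, 80.2 and 83.7 with B, and 169, 168 and 168 with control, so that A and B lay on opposite sides of control. GMFB, an actin-branch debranching factor, showed the same order, at 144 ± 10.2, 38.7 ± 8.03 and 82.1 ± 4.42 (mean ± SD, n = 3). ZNF804A, a zinc finger gene, averaged 22.3, 4.99 and 10.4. CAPN12 overlaps ACTN4 on the other strand, and since strand was not stated for the counting its values (149, 41.6 and 110) cannot be told apart from reads of ACTN4. The identifier ENSG00000267020.1, whose symbol was not matched, averaged 95.5, 23.7 and 73.2.

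Of the 15 genes lowest with A, 12 lay nearer to control with B than with A. TMEM54, a membrane protein gene (chr1:33360195-33367039), was at 4.18, 4.5 and 3.51 with A, at 34.6, 31.1 and 34.1 with B, and at 36.5, 35.8 and 30.7 with control. It overlaps HPCA on the other strand. Its log2 difference of -2.76 (SE 0.129, adjusted p = 1.72e-05) was the largest of the 30. PRKACA, the catalytic alpha subunit of protein kinase A (chr19:14202500-14228896), was at 17, 13.9 and 13.6 with A, 66.2, 76.8 and 65.6 with B, and 70.9, 84.8 and 86.4 with control (log2 difference -2.16, SE 0.126). In both genes the A libraries stood alone. NRGN, ELFN2, GALNT2, ZNF609, MYBL1 and the antisense RNA ENSG00000224407 within GALNT2 shared this order, with B less control between -0.09 and 0.08 on the log2 scale and A less control between -1.98 and -1.54. Since strand was not stated for the counting, the values of this antisense RNA cannot be told apart from reads of GALNT2. For UBALD2, R3HDM2, ZBTB4, RFX3 and BTG2, A was below control and B above it. RFX3, a ciliogenesis transcription factor, averaged 3.94 with A, 14.1 with B and 7.46 with control, and UBALD2 averaged 9.95, 41 and 23.

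**Figure D3:**
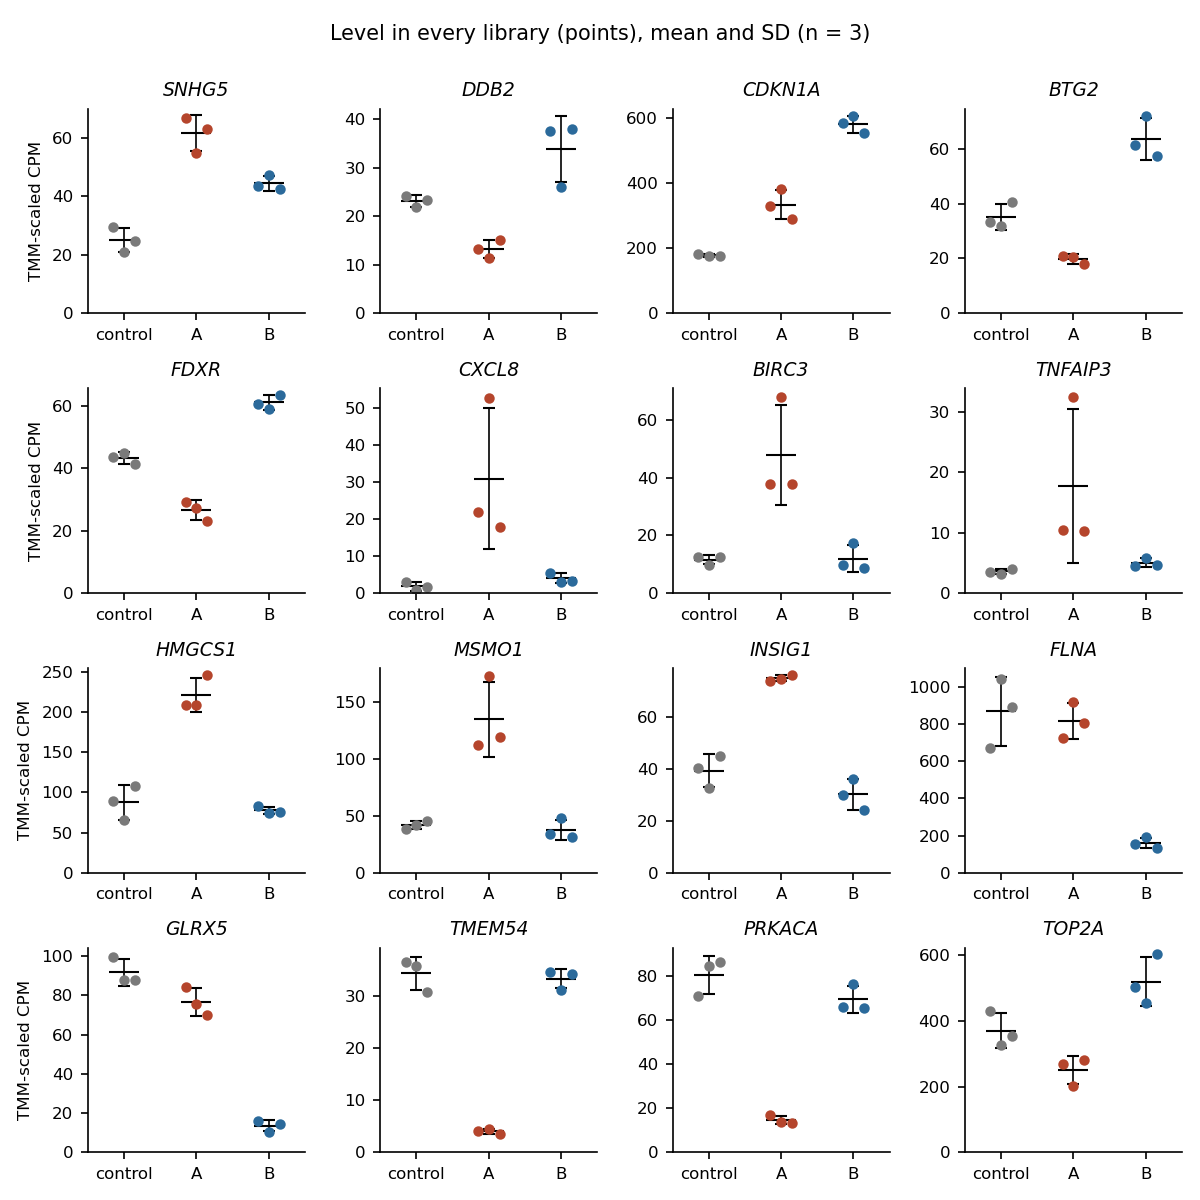
TMM-scaled CPM of 16 genes in each of 9 libraries (control grey, siRNA A red, siRNA B blue), with the mean and SD of 3 libraries as black bars and axes from 0. FLNA and GLRX5 are low with B alone, TMEM54 and PRKACA are low with A alone, and DDB2, BTG2 and FDXR lie below control with A and above it with B.

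The function lists that separated the siRNAs are drawn in the plot of called members by list. Lists with a larger share higher with A than the 16.4% of all genes included NF-kB targets, cholesterol synthesis, translation and its ribosomal and synthetase genes, proteasome, chaperones and YAP/TEAD targets. Lists with a larger share lower with A than 17.8% included damage-induced arrest and apoptosis genes, the TGF-beta and BMP pathway, mitosis, DNA repair and the EGFR family. The larger share for DNA repair was lost in several fits with 1 library left out, as given below. For each list the share of all genes is the comparison, and no list was tested as a set. The scaling moved several counts by over 1.5 times. With library totals alone, the number higher with A was 5 for snoRNA hosts (9 with TMM), 6 for tRNA synthetases (13), 19 for cytosolic and 12 for mitochondrial ribosomal proteins (32 and 24), 11 for splicing factors (18), 8 for proteasome subunits (16), 3 for chaperones (9), 3 for iron-sulfur genes (7) and 3 for antioxidant genes (8). The number lower with A was 20 for mitosis (13), 12 for DNA repair (7) and 7 for hypoxia genes (3).

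**Figure D4:**
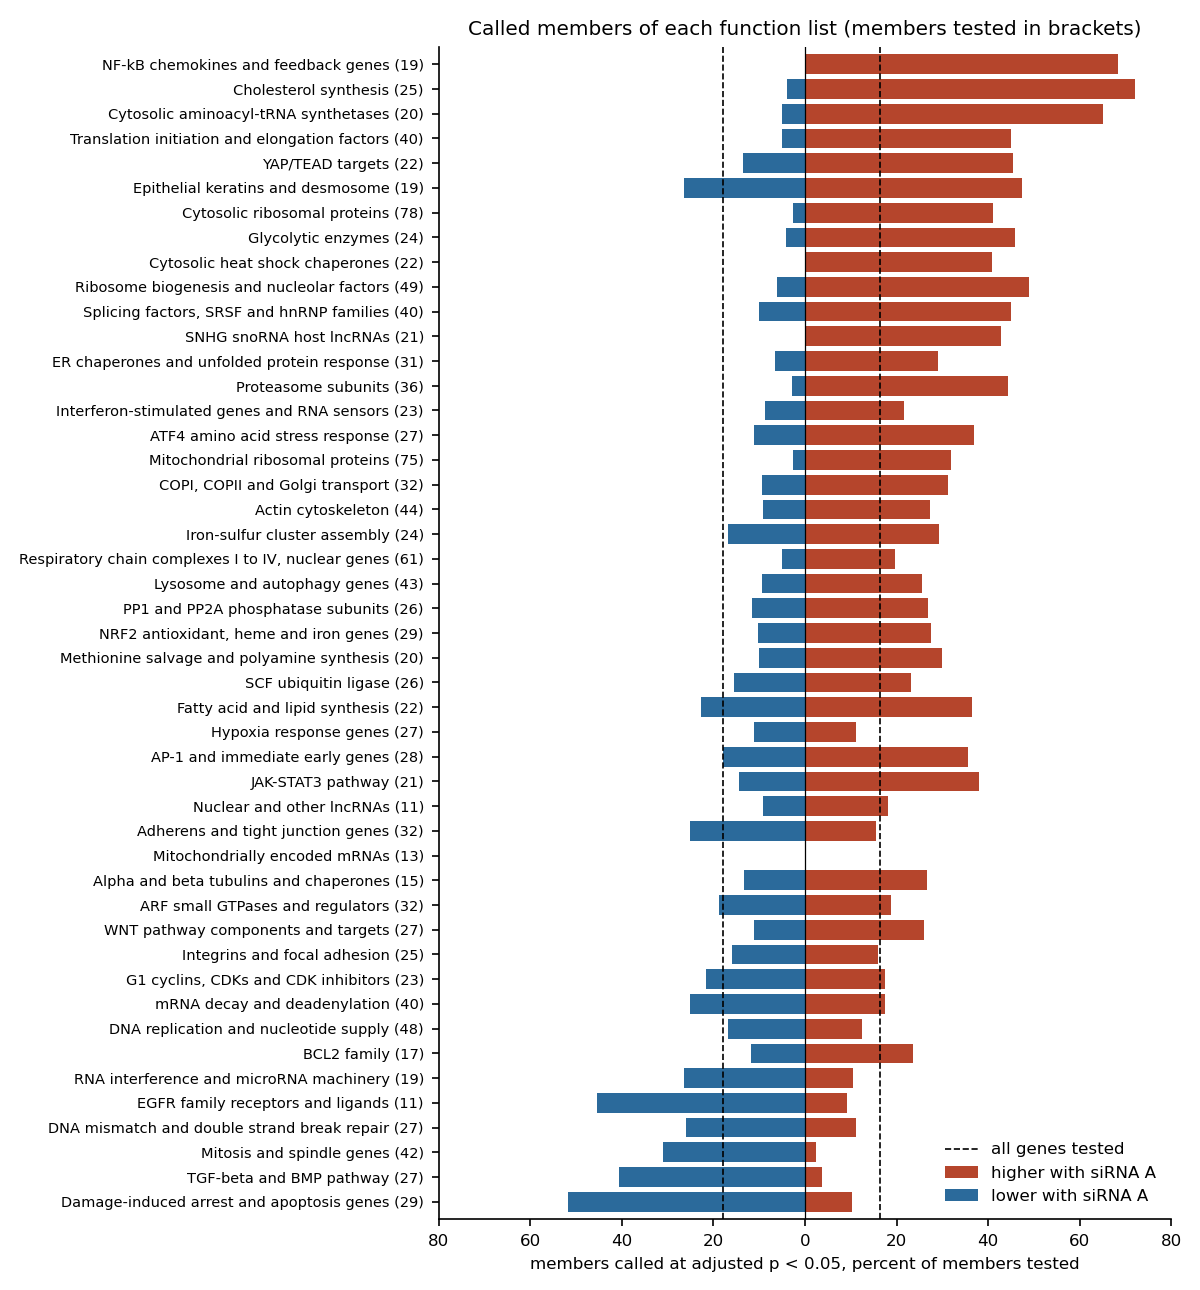
Percent of tested members of each function list called higher (red, right) or lower (blue, left) with siRNA A at an adjusted p under 0.05, ordered by median log2 difference, with the shares of all genes tested (16.4% and 17.8%) as dashed lines. NF-kB genes (13 of 19) and cholesterol synthesis (18 of 25) head the list, and damage-induced arrest and apoptosis genes (15 of 29 lower) close it.

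Genes known to be induced by DNA damage, which halt the cell cycle, promote repair or trigger apoptosis, were lower with A. Of 29 such genes tested, 15 were lower and 3 higher with A, with a median log2 difference of -0.528 against -0.0084 for all genes. The number higher was 1 without replicate 1 of B and with library totals alone. BTG2, an antiproliferative gene that recruits deadenylases, was at 20.9, 20.6 and 17.8 with A and 61.3, 72 and 57.4 with B, against 33.1, 31.7 and 40.4 with control (-1.63). The A libraries were all below control and the B libraries all above it. DDB2, which recognises ultraviolet damage in DNA, averaged 13.2 with A, 33.9 with B and 23.1 with control (-1.29, adjusted p = 0.000624). FDXR (ferredoxin reductase) and the apoptosis effector BAX had the same order, with means of 26.5, 61.2 and 43.3 and of 25.4, 43.1 and 33.8. CDKN1A, the p21 inhibitor of cyclin-dependent kinases, was different against control. It was at 328, 380 and 290 with A, 582, 605 and 553 with B and 182, 175 and 176 with control, so both siRNAs were above control and B was the higher (-0.81, SE 0.123, adjusted p = 0.00131). GADD45A, a stress-induced growth arrest gene, averaged 32.5, 55.1 and 24 (-0.79).

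The members higher with A included PLK2, a polo-like kinase, and ZMAT3, an RNA-binding zinc finger gene. PLK2 was at 226, 524 and 233 with A, 122, 170 and 111 with B, and 101, 118 and 115 with control (log2 difference 1.19, and 0.796 without replicate 2 of A). ZMAT3 differed by 0.50, and its call was lost without replicate 3 of A (0.424, adjusted p = 0.0647), without replicate 1 of B (0.436, adjusted p = 0.0711) and with library totals alone (0.346, adjusted p = 0.066). Against control the list median was 0.116 with A and 0.512 with B.

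NF-kB target and feedback genes were higher with A, and none was lower. NF-kB transcription factors induce chemokines, survival genes and their own inhibitors. Of 19 genes tested, 13 were higher and 0 lower, with a median log2 difference of 0.656. At an unadjusted p under 0.05 limma gave 15 and 0, and edgeR and DESeq2 each called 15 and 0. CXCL8, the neutrophil chemokine interleukin 8 (chr4:74606236-74609433), was at 21.9, 52.8 and 17.9 with A, at 5.51, 3.04 and 3.24 with B, and at 3.08, 0.745 and 1.62 with control. The lowest A library was above the highest B library, and the log2 difference was the largest of the 15, 2.57 (SE 0.345, adjusted p = 0.000707), or 2.12 without replicate 2 of A. BIRC3, an inhibitor of apoptosis, was at 37.9, 67.9 and 37.6 with A and 9.54, 17.4 and 8.76 with B, against 12.3, 9.77 and 12.5 with control (1.93, and 1.65 without replicate 2 of A). TNFAIP3, the deubiquitinase A20 that dampens the pathway, was at 10.4, 32.5 and 10.3 with A, 4.54, 5.84 and 4.62 with B, and 3.53, 3.19 and 4.03 with control (1.45, and 0.933 without replicate 2 of A). RELB, a subunit of the factor, was at 22.9, 20.8 and 16.1 with A and 8.49, 6.75 and 9.85 with B (1.16).

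Replicate 2 of A was the highest A library for CXCL8, BIRC3 and TNFAIP3, and without it the list had 8 members higher and 0 lower with a median of 0.45. Against control the list median was 0.845 with A and 0.15 with B. The leukocyte markers summed to less than 2 CPM in each of the 6 libraries, as given above.

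NF-kB binds sites such as GGAATTTCC. This word or its reverse complement GGAAATTCC was found, by search of both strands, in the promoter window (250 bases before to 50 after the gene start, RefSeq, GRCh38.p14) of 8 of the 16 members with a window. Of the windows of all tested genes with one, 44 of 9961 held it (0.442%). The list is made of known targets, so this describes the list and not these libraries. Stretches of CXCL8 (chr4:73740470-73740494, plus strand), CXCL1 (chr4:73869307-73869331, plus) and NFKBIA (chr14:35404814-35404838, minus) are shown because they carry the word upstream of genes called higher with A, and capitals mark it:
CXCL8: caaatcgtGGAATTTCCtctgacat
CXCL1: gaactccgGGAATTTCCctggcccg
NFKBIA: actggcttGGAAATTCCccgagcct
CXCL8, CXCL1 and NFKBIA, the latter an inhibitor that holds NF-kB in the cytoplasm, differed by 2.57, 0.98 and 1.05 on the log2 scale. A match is a description, not a bound site.

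Cholesterol synthesis genes were higher with A. Their enzymes turn acetyl-CoA into cholesterol, under control of the factor SREBF2 and the sterol sensors that hold it back. Of 25 genes tested, 18 were higher and 1 lower, with a median log2 difference of 0.652. SREBF2 was at 226, 232 and 254 with A, 77.5, 75.1 and 78.4 with B, and 139.5 ± 16.4 with control (mean ± SD, n = 3), so that A lay above and B below control (1.61, SE 0.0997, adjusted p = 3.2e-05). MSMO1, a methylsterol oxidase, was at 112, 173 and 119 with A, 34.1, 47.7 and 31 with B, and 38, 42.1 and 45 with control (1.81). HMGCS1, which makes HMG-CoA, was at 209, 209 and 246 with A, 83, 74 and 75.9 with B, and 88.9, 65.1 and 108 with control (1.496). INSIG1, a sterol sensor and itself a target of the pathway, was at 74.2, 74.7 and 76.4 with A and 30.1, 36.3 and 24.2 with B (1.30). For MSMO1 and HMGCS1 the A libraries stood above B and control alike. The member lower with A was TM7SF2, a sterol reductase gene that overlaps VPS51, at 4.87, 4.5 and 4.06 with A and 5.59, 7.61 and 7.18 with B (-0.50). Its call was lost without replicate 2 or 3 of A or replicate 2 or 3 of B, at adjusted p of 0.0572 to 0.0975, and when the log2 values of each library were corrected for a trend on exonic GC content (-0.397, adjusted p = 0.0624). Against control the list median was 0.555 with A and -0.144 with B, and without replicate 2 of A 18 members were higher.

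The SREBF2 promoter window (RefSeq, GRCh38.p14) was the single one of 18 member windows that held CACCCCAC or its reverse complement GTGGGGTG, the core of the classical sterol element, on either strand. It is shown for that reason, at chr22:41832965-41832988 on the plus strand, with the word in capitals:
SREBF2: cgcgccatCACCCCACgcaccgct
Of all tested genes' windows 2.54% held the word, and no match says only that these letters are not in a window.

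The machinery of protein synthesis was higher with A over several lists. These consist mainly of genes of the highest level class, except mitochondrial ribosomal proteins, with 22 of 75 in that class. Cytosolic aminoacyl-tRNA synthetases, which charge tRNAs, had 13 of 20 higher and 1 lower (median 0.427). RARS1 (arginine) was at 161, 152 and 166 with A, 73.6, 70.9 and 72.3 with B, and 154, 143 and 144 with control (1.13, adjusted p = 0.000123), that is, A near control and B low. QARS1 (glutamine) had the same order at 126, 64.1 and 140, while the exception AARS1 (alanine) was at 103, 116 and 109 with A and 228, 252 and 216 with B (-1.07). Translation initiation and elongation factors had 18 of 40 higher and 2 lower (median 0.382). EIF4A1, a helicase that unwinds mRNA leaders, was at 16.7, 53.5 and 16.9 with A and 4.62, 11.6 and 5.39 with B (1.75, and 1.21 without replicate 2 of A). Replicate 2 was the highest library of both groups for this gene, whose span holds snoRNAs and a readthrough gene with SENP3. EIF3B, a scaffold of the initiation factor eIF3, was at 155, 195 and 161 with A, 84.6, 89.3 and 78.2 with B, and 482, 465 and 482 with control. It was thus below control with both siRNAs and lowest with B (1.01).

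Cytosolic ribosomal proteins had 32 of 78 genes higher with A and 2 lower, with a median of 0.372, against 0.168 for all genes of the highest level class, which held 67 of the 78. RPL39 was at 19.2, 32.4 and 19.8 with A, 7.65, 7.12 and 7.67 with B, and 5.18, 4.72 and 4.65 with control (1.51, and 1.28 without replicate 2 of A). RPS27A, a ubiquitin fusion, was at 122, 161 and 112 with A and 55.6, 66.6 and 56.9 with B (1.12). RPS25 and RPLP0 were lower with A, by -0.63 and -0.50, and the latter call was lost without replicate 1 of B (-0.472, adjusted p = 0.0527). Ribosomal protein genes have many processed copies in the genome, so the level of any one is uncertain. The count of 32 fell to 19 without replicate 1 of A, without replicate 2 of A or without replicate 1 of B, rose to 41 without replicate 3 of A, and was 19 with library totals alone. Against control the list median was 0.946 with A and 0.6 with B.

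Ribosome biogenesis factors had 24 of 49 genes higher and 3 lower (median 0.317). BYSL, needed for the small subunit, averaged 97.9 with A, 49.2 with B and 48.7 with control (0.98), and the nucleolar helicase DDX21 averaged 1350, 687 and 749 (0.97). NCL, the nucleolar protein nucleolin, went the other way, at 811, 824 and 799 with A, 1854, 1944 and 2250 with B, and 1773, 1329 and 1681 with control (-1.31, SE 0.121). Mitochondrial ribosomal proteins had 24 of 75 higher and 2 lower (median 0.234). Without replicate 1 of A 15 were higher (median 0.156), without replicate 2 of B 4 were lower (median 0.102), and with library totals alone 12 were higher (median 0.0825). Of the 13 mRNAs encoded by mitochondrial DNA 0 were called (median 0.0614), and their median took either sign with 1 library left out, from -0.0865 without replicate 2 of A to 0.285 without replicate 2 of B. Limma also gave 0 of these 13 at an unadjusted p under 0.05, and edgeR and DESeq2 called 0. SRSF and hnRNP splicing factors had 18 of 40 higher and 4 lower (median 0.314), led by HNRNPA0 at 242, 325 and 246 with A, 86.4, 89.5 and 83.5 with B, and 150, 148 and 153 with control (1.62). Without any single library but replicate 2 of B, 1 or 2 splicing factors were lower.

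Protein folding and turnover followed. Of 36 proteasome subunits 16 were higher and 1 lower (median 0.261). PSMD14, the deubiquitinase of the proteasome lid, was at 238, 212 and 231 with A and 93.1, 74.7 and 105 with B (1.32), and the lid subunit PSMD13 at 80.4 ± 2.17 with A, 154 ± 22.6 with B and 161 ± 13.4 with control (mean ± SD, n = 3; -0.92). For PSMD13 B was near control and A low. Cytosolic heat shock chaperones had 9 of 22 higher and 0 lower by limma and edgeR and 11 and 0 by DESeq2 (11 and 0 at an unadjusted p under 0.05 by limma), with a median of 0.321. Without replicate 1 of A 5 were higher. DNAJB1, a co-chaperone of HSP70, averaged 240 with A, 106 with B and 214 with control (1.18). HSPA9, the mitochondrial HSP70 that serves iron-sulfur cluster assembly, was lower with A, at 360, 364 and 363 against 791, 801 and 789 with B and 549, 509 and 612 with control (-1.13). The iron-sulfur list thus held HSPA9 and FDXR on the low side and GLRX5 on the high side, with 7 of 24 higher and 4 lower.

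Glycolytic enzymes had 11 of 24 higher with A and 1 lower (median 0.357). HK2 (hexokinase 2) averaged 63.2 with A, 29.6 with B and 45.3 with control (1.06), and TPI1 (triosephosphate isomerase) 495, 242 and 281 (1.03). The hypoxia list had 3 of 27 higher and 3 lower. Its largest members were MXI1, a MYC antagonist, at 56.4, 18.4 and 34 (1.57) and the histone demethylase KDM4B at 10.3, 21.5 and 22.6 (-1.01). In the amino acid stress list of the factor ATF4, 10 of 27 were higher and 3 lower, or 5 lower without replicate 2 of B (median 0.245). PHGDH and PSAT1, successive enzymes of serine synthesis, averaged 37.8 and 143 with A and 11.9 and 51.5 with B (1.58 and 1.46), with control at 34.4 and 64.3. PHGDH was thus low with B, and PSAT1 high with A.

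YAP/TEAD target genes, which answer to the Hippo pathway and to cell tension, had 10 of 22 higher and 3 lower (median 0.379). AMOTL2, a feedback inhibitor, was at 269, 341 and 296 with A, 102, 119 and 89.1 with B, and 69, 78.2 and 81.8 with control (1.54). YAP1 itself was at 193, 255 and 230 with A, 95, 102 and 85.2 with B, and 89.7, 108 and 105 with control (1.25), and CCN1, a matricellular target, averaged 272, 112 and 29.8 (1.19). NUAK2, a kinase of the AMPK family, was at 31.4, 76.3 and 29.9 with A and 12.7, 19.1 and 12.6 with B (1.46, and 1.03 without replicate 2 of A). AXL, a receptor tyrosine kinase, was lower with A, at 69, 72.1 and 71.4 against 141, 153 and 132 (-0.99). Without replicate 2 of A the list had 7 higher, 3 lower and a median of 0.254.

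The actin list had 36 of 44 genes in the highest level class. Of the 44, 12 were higher (27.3%, against 28.9% of all genes of that class) and 4 lower (median 0.216), or 2 lower without replicate 3 of A, replicate 1 of B or replicate 3 of B. FLNA, CNN2 and ACTN4 head the actin list, as given above, and MYH9, the heavy chain of non-muscle myosin, was lower with A, at 190, 261 and 218 against 466, 549 and 473 with B and 487, 592 and 661 with control (-1.16). Keratins and desmosome genes had 9 of 19 higher and 5 lower, or 3 lower without replicate 1 or 3 of A. KRT7, a simple epithelial keratin, averaged 33.7 with A, 15.3 with B and 15.2 with control (1.09), and PPL, the plaque protein periplakin, 9.08, 26.1 and 33.9 (-1.44). The members lower with A were the plaque genes PPL, EVPL, JUP, PKP3 and PKP4. The higher ones were 7 keratins and the desmosome genes DSC3 and PKP2.

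**Figure D5:**
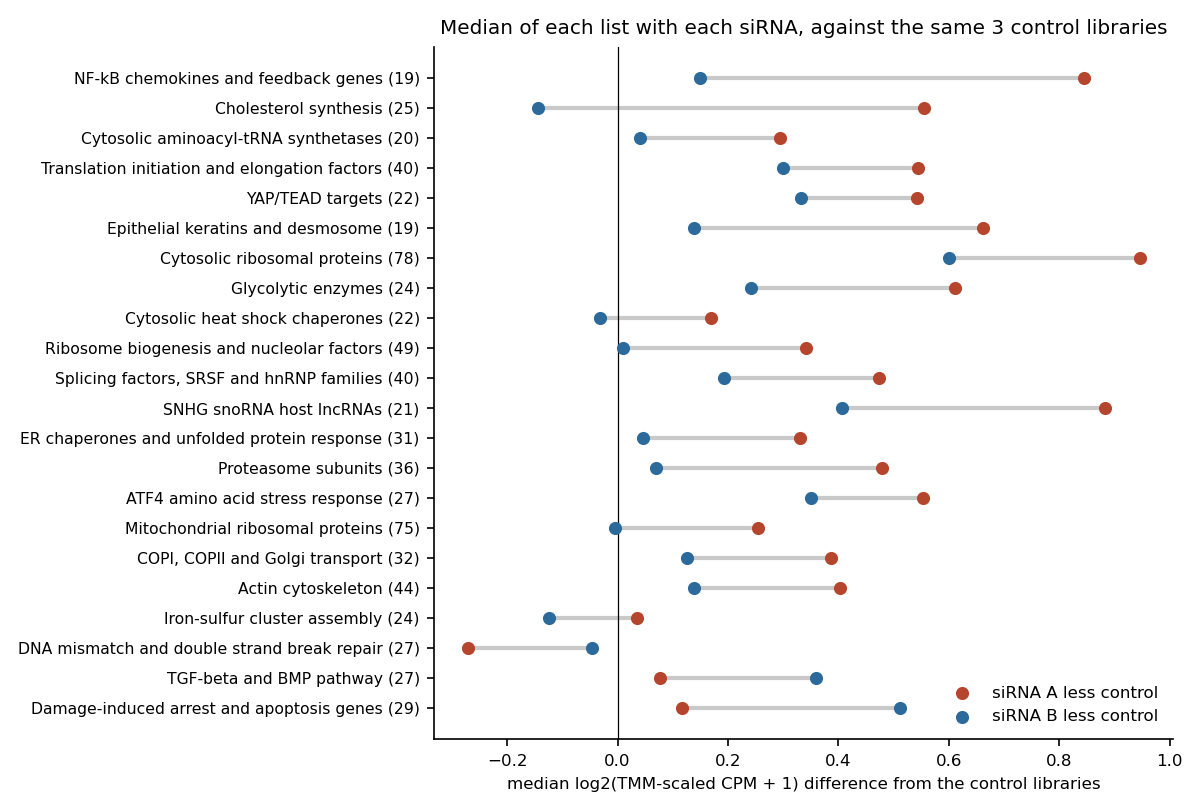
Median log2 difference from the 3 control libraries for siRNA A (red) and siRNA B (blue) in each function list with a share of called genes above 34.2% and a median difference between the siRNAs above 0.2; a grey bar joins them, and both points of a list share the control libraries. Cholesterol synthesis lies at 0.555 with A and -0.144 with B, NF-kB genes at 0.845 and 0.15, and damage-induced genes at 0.116 and 0.512.

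Other lists held a larger share of genes lower with A than the 17.8% of all genes. In the TGF-beta and BMP pathway, which signals from paired receptors to SMAD factors, 11 of 27 were lower and 1 higher (median -0.342). TGFBR1, a receptor, was at 15.7, 16.9 and 18.3 with A, 32.7, 41.1 and 27.1 with B, and 20.4, 24.5 and 27.6 with control (-0.93). The target ID1, an inhibitor of differentiation factors, was at 153, 154 and 135 with A, 243, 324 and 255 with B, and 164, 162 and 141 with control (-0.88), so here B stood alone. The ligand BMP4 was the member higher with A, at 133, 136 and 119 against 87.3, 79.1 and 76.8, with control at 127 ± 5.38 (mean ± SD, n = 3; 0.66). TGFBR3, a co-receptor, averaged 10.6 with A and 18.5 with B (-0.72), and its call was lost without replicate 3 of A (-0.708, adjusted p = 0.0513). SMAD6, an inhibitory SMAD near 1 CPM with A and at 2.73 with B (-0.85), lost its call without replicate 2 or 3 of A (adjusted p = 0.0505 and 0.0774).

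Of 42 mitosis and spindle genes, 13 were lower with A and 1 higher, with a median of -0.264. TOP2A, the topoisomerase that untangles chromosomes, was at 269, 201 and 281 with A, 503, 454 and 602 with B, and 430, 328 and 353 with control (-1.05, SE 0.156, adjusted p = 0.00111). ESPL1, the protease separase, averaged 35.9, 72.8 and 71.9. CCNB2, a mitotic cyclin, averaged 48.1, 83.4 and 71.7 (-0.77), and the kinetochore gene NUF2 37.3, 60.7 and 36.9 (-0.69). A was below control for TOP2A, ESPL1 and CCNB2, and B was above it for TOP2A, CCNB2 and NUF2. BIRC5 (survivin) was the member higher with A (0.49) and lost its call without replicate 1 or 3 of A or replicate 2 of B, at adjusted p of 0.0681 to 0.108, and with library totals alone (0.341, adjusted p = 0.161). Without replicate 1 of B, 8 mitosis genes were lower, and without replicate 2 of B, 18 were. RPA1, a single-strand DNA binding subunit of replication, averaged 136, 55.1 and 185 (1.29).

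Mismatch and double-strand break repair genes had 7 of 27 lower and 3 higher (median -0.237). The count of 7 fell to 4 without replicate 1 of A and to 3 without replicate 2 of A, replicate 1 of B or replicate 3 of B. In the latter 3 fits, 1880, 1547 and 1853 of all 13427 genes were lower. The share of the repair list was then below that of all genes. In the EGFR family, 5 of 11 were lower and 1 higher (median -0.173). At an unadjusted p under 0.05 limma gave 5 lower and 4 higher, so the list was mixed in direction. ERBB2 was at 33.3, 35.7 and 35.9 with A, 55.5, 56.4 and 58 with B, and 56.1, 58.5 and 58.8 with control (-0.68), so A alone was low. EGFR averaged 112, 156 and 109 (-0.49) and lost its call without replicate 1 or 3 of A or replicate 1 or 2 of B, at adjusted p of 0.0549 to 0.101. The list had 2 lower without replicate 1 of A, replicate 3 of A or replicate 1 of B, and 3 without replicate 2 of B.

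Lists that mixed directions also held large single differences. HMOX1 (heme oxygenase 1, which breaks down heme) was at 254, 190 and 168 with A, 707, 370 and 615 with B, and 78.5, 23.4 and 62.6 with control (-1.43, SE 0.233, adjusted p = 0.00173). Both siRNAs were above control and B was the higher. The heme transporter SLC48A1 was at 5.72, 5.07 and 4.62 with A and 17.2, 13.3 and 17 with B (-1.45), with B near control. Their antioxidant, heme and iron list, with 19 of 29 in the highest level class, had 8 higher (27.6%, against 28.9% of that class) and 3 lower. The number higher was 4 without replicate 2 of A and 5 without replicate 3 of A or replicate 1 of B, and 5 were lower without replicate 2 of B. Of 28 AP-1 and immediate early genes 10 were higher and 5 lower. ATF3, a stress-induced factor, was at 89.4, 189 and 86.2 with A, 57.4, 45.5 and 45.8 with B, and 25.6, 12.8 and 21.3 with control (1.19, and 0.821 without replicate 2 of A). KLF2, a quiescence factor, was at 13.1, 12.8 and 10.9 with A and 30.9, 35.2 and 33.3 with B (-1.36). Without replicate 2 of A the AP-1 list had 8 higher and 8 lower. In WNT signalling, CTNNB1 (beta-catenin, of which HCT116 carries a stabilised form) was at 290, 381 and 329 with A, 166, 142 and 141 with B, and 220, 268 and 264 with control (1.14), and the feedback target AXIN2 averaged 12.8, 4.08 and 13.3 (1.37). The list held 7 of 27 higher and 3 lower, or 1 lower without replicate 3 of A or replicate 1 of B.

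Of 19 genes of the RNA interference machinery, 2 were higher and 5 lower, so that 36.8% were called against 34.2% of all genes (median -0.0597, and -0.214 to -0.0469 over the other settings). Without replicate 1 of A, replicate 2 of A or replicate 1 of B 3 were lower, and without replicate 2 of B 4 were higher. AGO4 was at 1.79, 2.25 and 3.06 with A, 7.9, 9.55 and 6.41 with B, and 5.44, 8.69 and 7.76 with control (-1.41, adjusted p = 0.000651). TNRC6B, the scaffold that joins Argonaute to deadenylases, was at 37.1, 29.2 and 43 with A, 69.7, 86.6 and 89.2 with B, and 66, 51.5 and 61.7 with control (-1.15). AGO1 was at 43.4, 55.5 and 53.2 with A, 25.8, 30.7 and 26 with B, and 59.5, 88.3 and 74.6 with control (0.86), and the DICER partner TARBP2 averaged 36.1, 20.9 and 25.8 (0.76). AGO4 was thus low with A and AGO1 lowest with B, below control with either siRNA.

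Of the partner genes that the study named, few differed between the siRNAs. Against control the median of these genes was -0.169 with A and -0.14 with B. Among 9 partner genes tested, 1 was called (11.1%, against 34.2% of all genes). It was PITRM1, a mitochondrial peptidase, at 61.7, 66.8 and 68 with A, 83.3, 83.7 and 84.3 with B, and 95.7, 107 and 97.2 with control (-0.35, adjusted p = 0.0214). The call was lost without replicate 1 of A, replicate 1 of B or replicate 3 of B, at adjusted p of 0.0665 to 0.0839. The log2 difference was -0.22 for GLE1 (SE 0.0996, adjusted p = 0.108) and 0.22 for SPATS2 (SE 0.142, adjusted p = 0.254). STAU1, a decay protein in the study, and STAT3, a survival pathway gene there, are not partner transcripts. They differed by 0.18 (SE 0.102, adjusted p = 0.204) and -0.03 (SE 0.105, adjusted p = 0.849). GLE1 was called with library totals alone (-0.375, adjusted p = 0.0261). SPATS2 was at 94.4, 71.8 and 93 with A and 73.8, 64.2 and 83.5 with B, and the groups overlapped.

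Outside that list, ARF1, a Golgi GTPase, was at 548, 583 and 496 with A, 245, 210 and 233 with B, and 351, 343 and 342 with control (1.24, SE 0.113, adjusted p = 0.000161). Its relative ARF3 went the other way, at 43.8, 39.7 and 46.4 with A, 111, 91.1 and 106 with B, and 121, 124 and 114 with control (-1.23). The list of ARF GTPases and regulators had 6 of 32 higher and 6 lower, or 4 higher and 9 lower with library totals alone. BCL2L1, the anti-apoptotic BCL-XL, was at 237, 233 and 220 with A, 155, 142 and 143 with B, and 249, 272 and 245 with control (0.65, adjusted p = 0.00134), so B alone was low. BCL2 was low, at 1.21 CPM with A and 1.4 with B (-0.10, adjusted p = 0.661). Of the PCR reference genes, ACTB averaged 4874 with A and 2712 with B (0.84, adjusted p = 0.00261) and RPLP0 541 and 765 (-0.50). GAPDH, at 3580 ± 543 and 3468 ± 210, differed by 0.04 (SE 0.153, adjusted p = 0.877), and HPRT1 by 0.32 (adjusted p = 0.0606). HPRT1 was called by DESeq2 (0.333, adjusted p = 0.0493) and with all 9 libraries in the fit (0.325, adjusted p = 0.0465).

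Short words in the 3′ untranslated region were scored against the difference between the siRNAs. For 11567 tested genes the longest 3′ region of a full-length protein-coding transcript was read (GENCODE lifted to GRCh37), and each 7-letter word held by at least 200 genes was scored by the median log2 difference of its holders less that of other genes of like region length, on the sense strand only. Of 14312 words, GTGGACT (1191 genes) had the highest score, 0.119, and it stayed highest (0.121) when genes were also grouped by GC content. The lowest scores belonged to GC-rich words such as CGCGGGG (-0.219). With GC content in the grouping, which was added after the data were seen, the lowest was AGGACGA (286 genes), at -0.146. Under the first grouping, percentiles 1 and 99 of all words were -0.115 and 0.0644. Both words were chosen by these values, so what follows on their holders is a description, also where control is set beside.

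Set against control with the same grouping, AGGACGA holders scored -0.274 with A, the lowest of all 14312 words, and -0.0452 with B. GTGGACT holders scored 0.00245 with A and -0.102 with B, where the word ranked 10 from the lowest. With length alone in the grouping, AGGACGA holders scored -0.368 with A and -0.12 with B. GTGGACT holders then scored -0.0155 with A and -0.139 with B. The comparisons with control reuse the libraries that chose the words, so these ranks are not independent of that choice. Among AGGACGA holders 32.9% were called lower with A and 9.09% higher, against 18.3% and 17.4% of other genes. Among GTGGACT holders 25.4% were higher and 13.9% lower, against 16.2% and 19.2%. The sequences of the siRNA guides were not used here, so the words were not compared with them.

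The 6-letter cores GGACGA and GTGGAC were then taken, after these values were seen, to find the words in the genes with the largest differences. They share the letters GGAC and can overlap. GGACGA was held by 794 genes (6.86%) and by 4 of the 14 genes with a region among the 15 lowest with A, and by 0 of the 14 among the 15 highest. The median log2 difference was 0.000547 for 10773 genes without it, -0.114 for 728 genes with 1 copy, -0.377 for 62 genes with 2 and -0.127 for 4 genes with 3 or more. Their median region length also differed, at 1430, 2840, 3570 and 10600 bases. The 4 stretches are shown with 7 bases on either side and the word in capitals, in GRCh37, at chr1:230415347-230415366 (GALNT2, plus strand), chr11:124616799-124616818 (NRGN, plus), chr19:14202568-14202587 (PRKACA, minus) and chr15:64976105-64976124 (ZNF609, plus):
GALNT2: aaggcacGGACGActgtgca
NRGN: tggtttcGGACGAcccttgc
PRKACA: ctgcgaaGGACGAgacttcc
ZNF609: acacagaGGACGAacttctg
All 4 genes were low with A and near control with B, as given above. TMEM54, also low with A, did not hold the word in this region.

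GTGGAC was more common, held by 3128 genes (27.0%). It was held by 6 of the 14 genes with a region among the 15 highest with A and by 3 of the 14 among the 15 lowest. By copies the medians were -0.0166, 0.0247, 0.022 and -0.000722 for 0, 1, 2 and 3 or more copies. Those of CCT3 (chr1:156278901-156278920, minus strand), GLRX5 (chr14:96010636-96010655, plus), ACTN4 (chr19:39221259-39221278, plus) and RSL24D1 (chr15:55474089-55474108, minus) are shown, with CNN2 (chr19:1039020-1039039, plus), as the holders with 1 copy among the 6, all of which were lower with B than with control:
CCT3: gaacactGTGGACgtctttg
GLRX5: ttttattGTGGACttaatta
ACTN4: tgtcaacGTGGACtagctcg
RSL24D1: gtgaattGTGGACgtaaaat
CNN2: tacgactGTGGACcaaacgc
The word was absent from the longest region of FLNA, which was also low with B. A match is a description of the region and not a site of action, and nothing was tested here on what the words do.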

How the data were processed

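The authors sequenced polyadenylated RNA and deposited CPM values per gene, the reads of a gene scaled to the reads of its library; the labels name TopHat2, HTSeq and the build GRCh37 (hg19), and strand handling is not given in the sources used here. Every CPM value came out as a whole number of reads. From the CPM, log2(TMM-scaled CPM + 1) was computed for the 6 siRNA A and B libraries and tested with limma 3.58.1 in R 4.3.3 (trend, no block), two-sided, with Benjamini-Hochberg adjustment over 13427 genes at 0.05; log2 differences on this scale understate changes of low genes. EdgeR 4.0.16 and DESeq2 1.42.0 on the recovered reads, other scalings and filters, and fits without 1 library were alternatives. Of these fits, only the main limma fit was tested on simulated reads. Comparisons with control came from a fit of all 9 libraries. Named genes were the 15 largest called differences in each direction without overlap at a mean of at least 5 CPM, up to 4 called genes per list and direction, and study or reference genes; a few others were named after their values were seen. Members and lists were chosen with earlier results of these data known. A few genes are not reported here and are left out of the list counts. 3′ regions came from full-length protein-coding transcripts, the longest per gene. Same-numbered A and B libraries were not treated as pairs: their deviations correlated at 0.2088, 0.4448 and 0.0156.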

Additional observations from a re-analysis of the deposited data

How the results depend on the processing

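The number of genes called was 4589, and 3073 (without replicate 1 of siRNA B) to 4818 (without replicate 2 of siRNA B) with 1 library left out, with 1526 to 2376 higher and 1547 to 2442 lower with A and 505 to 594 past 2-fold. With library totals alone 1288 were higher. Past 2-fold, 917 genes were called with a pseudocount of 0.1, 965 by edgeR and 955 by DESeq2, against 517. With replicate number as a block 5522 were called, and the numbers share no stated origin; A1 correlated best with B3, not with B1. Of genes not called, GAPDH changed sign with totals alone (-0.118) and ranged from -0.0635 to 0.168 with 1 library left out, BCL2 from -0.205 to 0.0368 and STAT3 from -0.0871 to 0.00108. Fitting all 9 libraries gave 5099 calls, a filter at 5 CPM 3984 of 10496 genes, and no filter 4498 of 15077. The score of GTGGAC went from 0.049 to 0.0873 when GC content was added to the grouping. The causes were not tested. With 3 libraries a group, differences near the spread between libraries were not detectable.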
